A study of Homo sapiens with 6 samples.

Results

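The genes described here are 37 interferon-stimulated genes and regulators of the interferon response, taken by symbol from a fixed list and matched to Ensembl gene IDs through the GENCODE release 29 annotation. All 37 were found among the 58676 genes of the deposited expression table. They were placed in 5 roles, namely ISG15 conjugation (6 genes), RNA sensors (7), antiviral effectors (12), other induced genes (6), and STAT and IRF factors with their cofactors (6). The measurements were messenger RNA levels from RNA sequencing of total RNA from a human cell line that the labels call HCC and do not name further, grown in DMEM with 10% FBS. Libraries labelled control numbered 3, and libraries labelled knockdown numbered 3. The knockdown libraries have the word sponge in their titles. The microRNA named for the series is miR-19a. Sponge transcripts hold many copies of a microRNA's target sequence and so keep it from other messages. The labels give no vector, promoter, dose or time, and they do not say whether the replicates were separate cultures. A p-value here thus reflects only how far these libraries spread, and that spread may be technical. Mature microRNA was not measured, and the knockdown labels were therefore not checked against their target.

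Interferons are secreted proteins that bind paired receptors on the cell surface and activate the kinases JAK1 and TYK2. These phosphorylate STAT proteins, among them STAT2, which joins IRF9 in a complex that enters the nucleus and binds a promoter sequence called the interferon-stimulated response element. The genes switched on in this way detect foreign RNA, block steps of virus replication, tag proteins with the ubiquitin-like protein ISG15, and in part regulate the response itself. Liver cells and liver-derived cell lines carry this pathway, although lines differ in how much of it they express.

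One library labelled knockdown, replicate 2, was left out of every comparison, because its values did not follow the gene IDs: its rank correlation with the other 5 libraries lay between 0.0173 and 0.0191, against 0.823 to 0.887 among those 5. Each comparison therefore set 2 knockdown libraries (replicates 1 and 3) against 3 controls. The 5 libraries held 1948940 to 19605312 reads assigned to genes, with control replicate 2 the shallowest, and mitochondrial genes took 4.95% to 10.4% of reads. All 10 hepatocyte marker genes examined, such as ALB and AFP, were expressed, with a summed level of 1528 to 1908 RPKM (reads scaled to exon length and to the reads of the library) in controls and 1695 and 1767 RPKM in knockdown. Within that sum, APOB was lower in knockdown and SERPINA1 and TF higher at an unadjusted limma p under 0.05, with log2 differences of -0.88, 0.54 and 0.43. The shares of all genes tested were 2.39% lower and 4.25% higher. Of 14 blood and immune cell markers, 4 were expressed well enough to test. The leukocyte gene PTPRC stayed at or under 0.0713 RPKM, and CLEC4C, MS4A1 and HBB had 0 reads in all 5 libraries. The immune markers summed to 46.1 to 52.2 RPKM in controls and 47.9 and 54.7 RPKM in knockdown. Most of that sum was CD14 (28.6 to 38.4 RPKM) and LYZ (8.59 to 11.6 RPKM), whose groups overlapped. The other 2 tested, CD3D and IL3RA, were higher in knockdown at an unadjusted limma p under 0.05, against 4.25% of all genes. CD3D stood at 4.46, 3.87 and 3.07 RPKM in controls and 6.14 and 6.09 RPKM in knockdown. IL3RA stood at 0.573, 0.900 and 0.776 RPKM in controls and 1.26 and 1.92 RPKM in knockdown. Control 2 held 7 reads of CD3D and 3 of IL3RA. ITGAM had 0, 0 and 2 reads in controls and 8 and 9 in knockdown. Fibroblast markers summed to 63.9 to 83.7 RPKM in controls and 72.5 and 68.4 RPKM in knockdown, and endothelial markers to at most 1.06 RPKM. Most of the fibroblast sum was LUM (53.5 to 68.3 RPKM), whose groups overlapped. Of the other tested fibroblast markers, both knockdown libraries were above all controls in COL1A1 and COL1A2 and below them in PDGFRA. Their log2 differences were 0.66, 0.51 and -0.56, none at an unadjusted limma p under 0.05. Of all genes tested, 14.6% had both knockdown libraries above all controls and 12.8% both below. The part of other cell types in the results was not tested.

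The response element was searched in promoter sequence from RefSeq (assembly GRCh38.p14), which covers 250 bases before to 50 bases after a gene's start. Of the 37 genes, 29 had such a sequence. UBA7, USP18, OAS2, OASL, IFIT2, IFITM2, MX2 and IRF7 had none in the table. The motif GAAANNGAAA, read on both strands, was found in 21 of the 29 genes (72.4%), against 3.57% of all 35116 promoters of the same length. The gamma-activated site TTCNNNGAA, a form bound by STAT proteins, was found in 8 (27.6%), against 7.66% of all promoters, and 4 genes held both motifs. A member with several promoters was counted if any of them held the motif, while the shares of all are per promoter. The percentages set side by side are therefore not in the same unit. The stretches printed here show the response element in capitals for the genes described in full in which it lies wholly before the start, 5′ to 3′ on the strand of the gene, with 1 of the annotated starts of IFIT3. EIF2AK2 and DTX3L, also described in full, hold 1 match each that does not lie wholly before the start, and their windows are not printed. TTTC followed by NN and TTTC is the same motif on the other strand.

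ISG15 (chr1:1013344-1013439, plus strand): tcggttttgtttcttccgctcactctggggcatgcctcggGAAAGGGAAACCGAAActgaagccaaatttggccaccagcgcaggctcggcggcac
IFIH1 (chr2:162318685-162318745, minus strand): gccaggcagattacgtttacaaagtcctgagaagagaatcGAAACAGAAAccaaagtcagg
IFIT1 (chr10:89392480-89392569, plus strand): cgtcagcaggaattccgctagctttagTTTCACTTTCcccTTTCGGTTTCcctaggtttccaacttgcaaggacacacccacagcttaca
IFIT3 (chr10:89332438-89332527, plus strand): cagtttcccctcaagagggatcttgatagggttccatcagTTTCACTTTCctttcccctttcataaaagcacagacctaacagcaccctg
ISG20 (chr15:88638907-88638996, plus strand): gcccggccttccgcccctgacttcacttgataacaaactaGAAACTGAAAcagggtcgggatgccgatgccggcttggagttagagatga
IFI6 (chr1:27672236-27672325, minus strand): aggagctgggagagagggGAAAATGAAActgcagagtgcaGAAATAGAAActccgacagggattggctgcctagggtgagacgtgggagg
LGALS3BP (chr17:78979932-78980021, minus strand): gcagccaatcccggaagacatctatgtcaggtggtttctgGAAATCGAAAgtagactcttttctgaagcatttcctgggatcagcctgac

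In ISG15 the matches run together over 16 bases, from 113 to 98 bases before the start. The single match shown lies 51 to 42 bases before the start in IFIT3, 69 to 60 in ISG20 and 58 to 49 in LGALS3BP. UBE2L6, the tested member with the largest log2 difference between the groups, held no match in its window. A pair of genes that were barely expressed here, chosen after their values were seen, show the same letters.

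BST2 (chr19:17405705-17405800, minus strand): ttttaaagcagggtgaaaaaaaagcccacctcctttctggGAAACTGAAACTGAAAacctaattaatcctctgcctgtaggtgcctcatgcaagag
IFI27 (chr14:94110601-94110690, plus strand): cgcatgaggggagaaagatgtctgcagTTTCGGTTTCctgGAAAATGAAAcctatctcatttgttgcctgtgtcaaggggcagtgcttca

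BST2, which tethers budding virus particles to the cell, had 5, 0 and 0 control reads and 1 read in each knockdown library. IFI27, a mitochondrial protein strongly induced by type I interferon, had 3, 1 and 10 control reads and 3 and 5 knockdown reads. Of the 21 tested genes with a promoter sequence, the 14 with the response element had a median log2 difference of 0.33 and the 7 without it a median of 0.37. Both knockdown libraries exceeded all controls in 7 of the 14 and in 3 of the 7, against 14.6% of all genes tested. The difference between the sets with and without the element was not tested. A match describes letters in a window and is not evidence of binding.

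The level of a gene was tested where it reached 0.5 RPKM in at least 2 of the 5 libraries. That left 26 of the 37 genes among 16851 genes tested in all, and none of the 26 passed only through the knockdown libraries. Differences are knockdown minus control on the log2(RPKM + 0.5) scale, which understates the change of genes of low level. No member passed limma's test at an adjusted p under 0.05 in either direction, and 0% of all genes tested were called higher and 0% lower, so no gene of the table passed. The lowest adjusted p among the members was 0.666.

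Below that threshold the members lay mostly on one side. The members, like the gene lists given further on, were chosen with earlier results of these data known. The shares of all genes set beside their counts are therefore not an independent check. The log2 difference was above 0 in 21 of 26 tested members and below 0 in 5, against 50.7% of all genes above 0. Its median was 0.35 over the members and 0.01 over all genes tested. At an unadjusted limma p under 0.05, 5 members were higher (UBE2L6, IFI6, LGALS3BP, IFIT3 and ISG20) and 0 were lower, against 4.25% and 2.39% of all genes. In 13 of the 26 members the 2 knockdown values both exceeded the 3 control values, and in none were both below, against 14.6% and 12.8% of all genes, and the groups overlapped in the other 13. Over all 37 members, tested or not, the knockdown libraries were above all controls in 15 (with MX1 and IRF7) and below them in 1 (OASL). Without a filter on low values, 12.5% of all genes had both above. That share is over 32271 genes with any read, 36 members among them. The share with both below is not given for that set. Leaving out control 2, the shallow library, gave 6 members higher at an unadjusted limma p under 0.05, against 5.28% of all genes, and 15 with knockdown above all controls, the latter against 19.4% of all genes. The first count was 7 without control 3 (5.07% of all genes), and 2 without control 1 (3.59%), without knockdown 1 (1.69%) and without knockdown 3 (0.793%). The median log2 difference lay between 0.32 and 0.43 whichever library was left out. In bulk RNA, more RNA of a gene per cell and more cells that express it cannot be told apart.

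Summed over the 37 genes, the level was 229.0, 185.5 and 222.9 RPKM in controls 1 to 3 and 306.2 and 381.7 RPKM in knockdown 1 and 3. Most of this sum came from ISG15, IFI6, IFITM2, UBE2L6 and LGALS3BP, which held 71.0% to 75.1% of it in controls and 76.3% and 81.9% in knockdown. The other 32 genes together summed to 57.0, 53.9 and 63.3 RPKM in controls and 72.5 and 69.1 RPKM in knockdown. Both knockdown libraries were the higher ones on each of these sums.

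**Figure D1:**
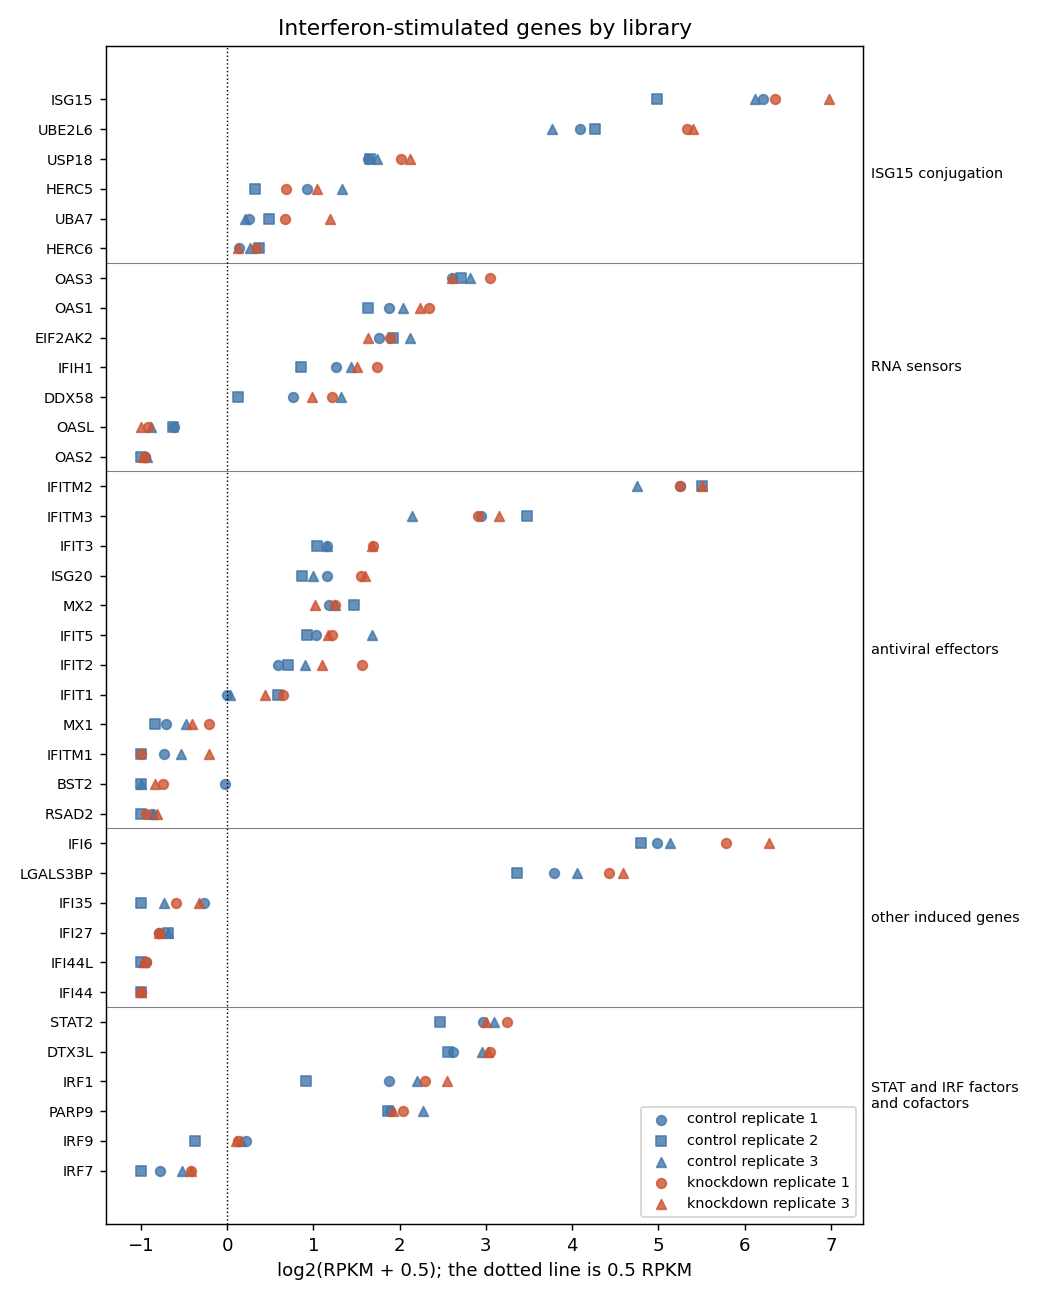
Level of each of the 37 genes as log2(RPKM + 0.5), on the horizontal axis, in the 3 control and 2 knockdown libraries, grouped by role; each point is 1 library and the dotted line is 0.5 RPKM. The levels run from 0 to 125.2 RPKM, and 11 genes lie left of the line in every library.

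The ISG15 conjugation system held UBE2L6, the member with the largest log2 difference and the largest moderated statistic of limma. ISG15 is attached to proteins by an enzyme chain in which UBA7 activates it, UBE2L6 carries it, and HERC5 ligates it, while USP18 removes it. HERC6 is a related ligase. All 6 genes were tested, and 5 differences were above 0 and 1 below. Both knockdown libraries exceeded all controls in 4 of the 6, against 14.6% of all genes tested, the share to set beside each role. The median log2 difference was 0.50.

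UBE2L6 (ENSG00000156587, chr11:57551656-57568284) stood at 16.6, 18.7 and 13.1 RPKM in controls and 39.7 and 41.7 RPKM in knockdown. The knockdown libraries lay close together, both above every control by more than the spread among controls. Its mean was 16.1 ± 2.82 RPKM (SD, n = 3) in controls and 40.7 ± 1.48 RPKM (SD, n = 2) in knockdown, 2.53-fold higher. On the log2 scale it differed by 1.32 (SE 0.19), with a limma p of 0.000684 and an adjusted p of 0.666, the 11th largest statistic of all genes tested in the upward direction. With limma-voom and sample weights on the recovered reads, UBE2L6 was the single member called, at an adjusted p of 0.0362, among 3 genes called higher and 1 lower of 16851. Over all 18 alternatives its log2 difference ranged from 1.10 to 1.44.

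ISG15 itself (ENSG00000187608, chr1:1001138-1014540), the most abundant of the 37 genes, stood at 73.6, 31.1 and 69.1 RPKM in controls and 80.9 and 125.2 RPKM in knockdown. Control 2, in which ISG15 rested on 57 reads, was the low library, and both knockdown libraries were above all controls. The log2 difference was 0.89 (SE 0.44, limma adjusted p = 0.710), and it was 0.50 without control 2 and 0.58 without knockdown 3. The ratio of UBE2L6 to ISG15 was 0.225, 0.601 and 0.190 in controls and 0.490 and 0.333 in knockdown, so that control 2 lay above both knockdown libraries on this ratio.

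USP18 (ENSG00000184979, chr22:18149899-18177397) stood at 2.61, 2.65 and 2.83 RPKM in controls and 3.54 and 3.83 RPKM in knockdown. The groups did not overlap, and the log2 difference was 0.39 (SE 0.16, limma adjusted p = 0.708). UBA7 (ENSG00000182179, chr3:49805207-49813946) stood at 0.695, 0.903 and 0.651 RPKM in controls and 1.09 and 1.78 RPKM in knockdown. Its groups were also apart, with knockdown 3 the high library and control 2 resting on 8 reads. The log2 difference of UBA7 was 0.61 (SE 0.27, limma adjusted p = 0.708) and 0.35 without knockdown 3. The ligases showed no such separation: HERC5 differed by 0.00 and HERC6 by -0.03 on the log2 scale, and both had overlapping groups.

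**Figure D2:**
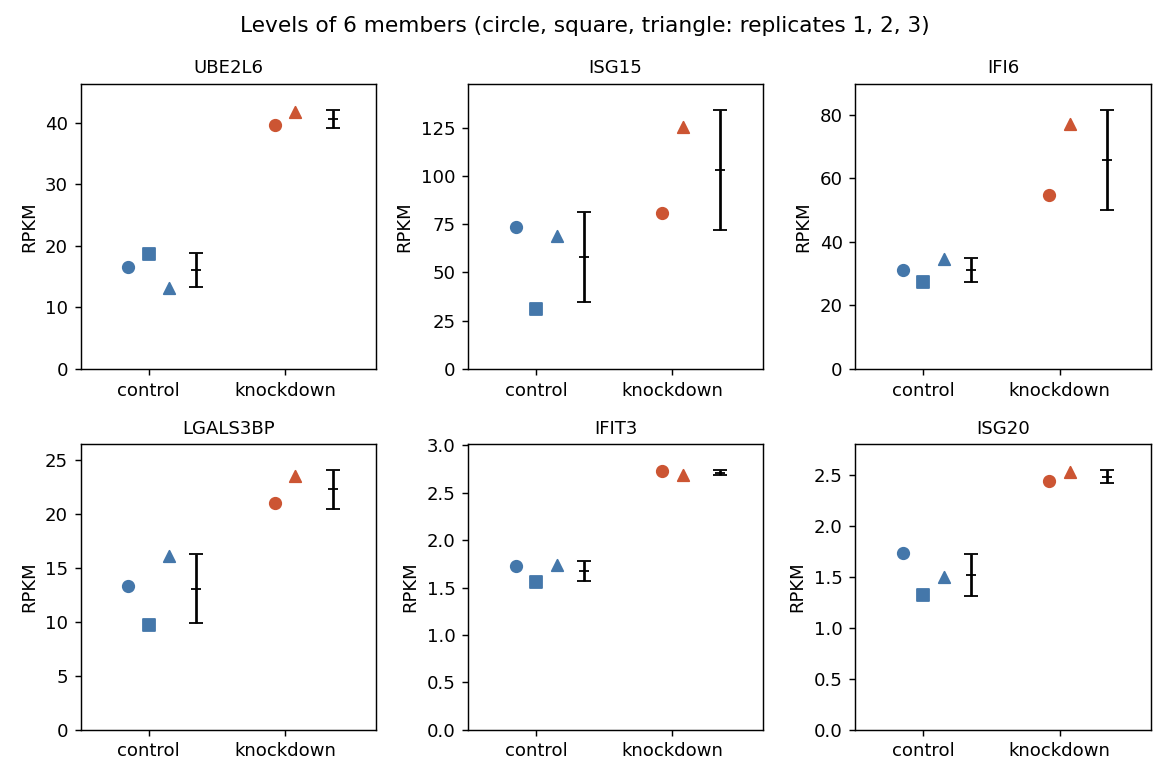
RPKM on a linear axis from 0 in each library for UBE2L6, ISG15, IFI6, LGALS3BP, IFIT3 and ISG20, which are the 5 members at an unadjusted limma p under 0.05 and ISG15; points are libraries (circle, square and triangle for replicates 1, 2 and 3) and the black marks are group means with 1 SD. In all 6 panels both knockdown libraries lie above the 3 controls, and ISG15 has the widest spread within its groups.

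The RNA sensors comprise the helicases DDX58 (RIG-I) and IFIH1 (MDA5), which signal on viral RNA, the kinase EIF2AK2 (PKR), which blocks translation on double-stranded RNA, and the oligoadenylate synthetases, which activate an RNA-cleaving enzyme. Of 7 genes, 5 were tested; 4 differences were above 0 and 1 below, with a median log2 difference of 0.37. Both knockdown libraries exceeded the controls in 2. Without control 2 the median was 0.12, and without control 3 it was 0.54.

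OAS1 (chr12:112906777-112933222) stood at 3.17, 2.59 and 3.62 RPKM in controls and 4.57 and 4.22 RPKM in knockdown. The groups did not overlap, and the log2 difference was 0.44 (SE 0.19, limma adjusted p = 0.708). IFIH1 (chr2:162267079-162318703) stood at 1.90, 1.31 and 2.21 RPKM in controls and 2.82 and 2.34 RPKM in knockdown. Knockdown 3 was only a little above control 3. The log2 difference of IFIH1 was 0.44 (SE 0.25, limma adjusted p = 0.726), and 0.27 without control 2.

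DDX58 (chr9:32455705-32526324) stood at 1.20, 0.589 and 2.00 RPKM in controls and 1.83 and 1.48 RPKM in knockdown. Control 3 was the highest of the 5 libraries and control 2 the lowest. The log2 difference was 0.37 (SE 0.39, limma adjusted p = 0.830), which was 0.06 without control 2 and 0.66 without control 3. EIF2AK2 (chr2:37099210-37157065) stood at 2.90, 3.29 and 3.85 RPKM in controls and 3.20 and 2.59 RPKM in knockdown. Its groups overlapped, and its log2 difference of -0.18 (SE 0.20, limma adjusted p = 0.836) was -0.31 without knockdown 1, -0.05 without knockdown 3 and -0.08 without control 3. OAS3 differed by 0.12 on the log2 scale with overlapping groups. OAS2 had at most 3 reads and OASL at most 5 in any library.

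The antiviral effectors include the IFIT proteins, which bind viral RNA ends and restrain translation, the IFITM proteins, which hinder entry of enveloped viruses, the MX GTPases, which bind viral capsids or nucleocapsids, and ISG20, an exonuclease that degrades RNA. Of 12 genes, 8 were tested; 6 differences were above 0 and 2 below, and the median log2 difference was 0.28. Both knockdown libraries exceeded all controls in IFIT2, IFIT3 and ISG20. The median was 0.49 without control 2.

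IFIT3 (ENSG00000119917, chr10:89327894-89340971) stood at 1.73, 1.55 and 1.74 RPKM in controls and 2.73 and 2.69 RPKM in knockdown. The libraries of each group lay close together and the groups were far apart. The closeness of the controls is uncertain, because control 2 held only 8 reads of the gene. The mean of IFIT3 was 1.68 ± 0.105 RPKM (SD, n = 3) in controls and 2.71 ± 0.0271 RPKM (SD, n = 2) in knockdown, 1.62-fold higher. This was a log2 difference of 0.56 (SE 0.18), with a limma p of 0.0227 and an adjusted p of 0.708.

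ISG20 (ENSG00000172183, chr15:88636153-88656483) stood at 1.73, 1.32 and 1.50 RPKM in controls and 2.44 and 2.53 RPKM in knockdown. Here too both knockdown libraries were above every control. Its mean was 1.52 ± 0.204 RPKM (SD, n = 3) in controls and 2.48 ± 0.0630 RPKM (SD, n = 2) in knockdown, 1.64-fold higher. ISG20 thus had a log2 difference of 0.57 (SE 0.20), with a limma p of 0.0305 and an adjusted p of 0.708.

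IFIT2 (chr10:89283694-89309276) stood at 1.01, 1.13 and 1.37 RPKM in controls and 2.47 and 1.64 RPKM in knockdown. Knockdown 1 was the high library, and the log2 difference was 0.60 (SE 0.25, limma adjusted p = 0.708), or 0.36 without it. Control 2 held 9 reads of IFIT2. IFIT1 (chr10:89392546-89406486) stood at 0.496, 1.00 and 0.520 RPKM in controls and 1.07 and 0.856 RPKM in knockdown. Control 2, with 9 reads, lay between the knockdown libraries, and the log2 difference was 0.34 (SE 0.30, limma adjusted p = 0.796), or 0.54 without control 2. With voom on the recovered reads it was 0.77, and 0.83 with sample weights. IFIT5, of the same family, differed by -0.02 on the log2 scale.

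The remaining effectors overlapped between groups or were hardly expressed. IFITM2, the most abundant effector, stood at 37.4, 44.9 and 26.5 RPKM in controls and 37.4 and 45.1 RPKM in knockdown. IFITM3 differed by 0.17 and MX2 by -0.17 on the log2 scale. The IFITM genes are near-identical copies that reads may not tell apart, and 22.7% of the exon bases of IFITM2 and 21.3% of those of IFITM3 also belong to another annotated gene, so their separate levels are uncertain. MX1 was not tested; it had 9, 1 and 37 reads in controls and 29 and 33 in knockdown, or 0.114, 0.0596 and 0.219 RPKM against 0.362 and 0.252 RPKM. RSAD2, which makes a chain-terminating nucleotide, and IFITM1 had at most 5 and 6 reads.

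Among the other induced genes, IFI6 and LGALS3BP were the ones tested, and both were higher in every knockdown library than in every control. IFI6 is a small hydrophobic protein that opposes cell death and flavivirus replication. LGALS3BP is a secreted glycoprotein that binds galectins. IFI6 (ENSG00000126709, chr1:27666061-27672218) stood at 31.1, 27.3 and 34.7 RPKM in controls and 54.6 and 77.0 RPKM in knockdown. The control libraries lay close together, and knockdown 3 was the highest. Its mean was 31.0 ± 3.72 RPKM (SD, n = 3) in controls and 65.8 ± 15.8 RPKM (SD, n = 2) in knockdown, 2.12-fold higher. IFI6 differed by 1.06 on the log2 scale (SE 0.21), with a limma p of 0.00319 and an adjusted p of 0.694. Across the alternatives it ranged from 0.81 to 1.30, and no alternative brought its adjusted p under 0.05.

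LGALS3BP (ENSG00000108679, chr17:78971238-78980109) stood at 13.3, 9.74 and 16.2 RPKM in controls and 21.0 and 23.6 RPKM in knockdown. Control 2 was the low library and the groups did not overlap. Its mean was 13.1 ± 3.22 RPKM (SD, n = 3) in controls and 22.3 ± 1.78 RPKM (SD, n = 2) in knockdown, 1.70-fold higher. LGALS3BP differed by 0.77 on the log2 scale (SE 0.24), with a limma p of 0.0208 and an adjusted p of 0.708. The other 4 genes of this role were near the limit of detection: IFI27 had at most 10 reads in any library, IFI35 at most 9 and IFI44L at most 2. IFI44 had 0 reads in all 5, and 3 reads, the limit that a count of 0 allows, would correspond to 0.0751 RPKM in the deepest library and 0.755 RPKM in the shallowest.

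The STAT and IRF factors carry the signal to the promoters, with PARP9 and DTX3L acting as a complex that supports the transcription of interferon-stimulated genes. Of 6 genes, 5 were tested; 4 differences were above 0 and 1 below, with a median log2 difference of 0.28, or 0.09 without control 2. IRF1 (ENSG00000125347, chr5:132481609-132490798), an early-induced factor, stood at 3.18, 1.38 and 4.09 RPKM in controls and 4.40 and 5.33 RPKM in knockdown. Both knockdown libraries were above the controls, with control 2 far below the others. The log2 difference was 0.75 (SE 0.41, limma adjusted p = 0.721), and 0.38 without control 2. Of its exon bases, 22.0% also belong to genes on the opposite strand, and whether the counting used strand is not given in the sources used here.

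DTX3L (chr3:122564238-122575203) stood at 5.66, 5.42 and 7.25 RPKM in controls and 7.79 and 7.65 RPKM in knockdown. The knockdown libraries were only a little above control 3, and the log2 difference was 0.32 (SE 0.18, limma adjusted p = 0.726). STAT2 (chr12:56341597-56360155) stood at 7.31, 5.04 and 8.06 RPKM in controls and 8.98 and 7.53 RPKM in knockdown. Its groups overlapped, and the log2 difference of 0.28 (SE 0.24, limma adjusted p = 0.792) was 0.09 without control 2 and 0.16 without knockdown 1.

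IRF9 (chr14:24161053-24166565), the DNA-binding partner of STAT2, stood at 0.660, 0.270 and 0.618 RPKM in controls and 0.595 and 0.572 RPKM in knockdown. Both knockdown libraries lay inside the range of the controls. The log2 difference was 0.12 (SE 0.31, limma adjusted p = 0.933), turned to -0.07 without control 2 (0.22 without control 1 and 0.20 without control 3), and is uncertain because 48.4% of the exon bases belong to another gene on the same strand. PARP9 differed by -0.03 on the log2 scale. IRF7 (chr11:612553-615999), the main amplifier of type I interferon production, was below the level tested, with 2, 0 and 10 reads in controls and 6 and 10 in knockdown.

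**Figure D3:**
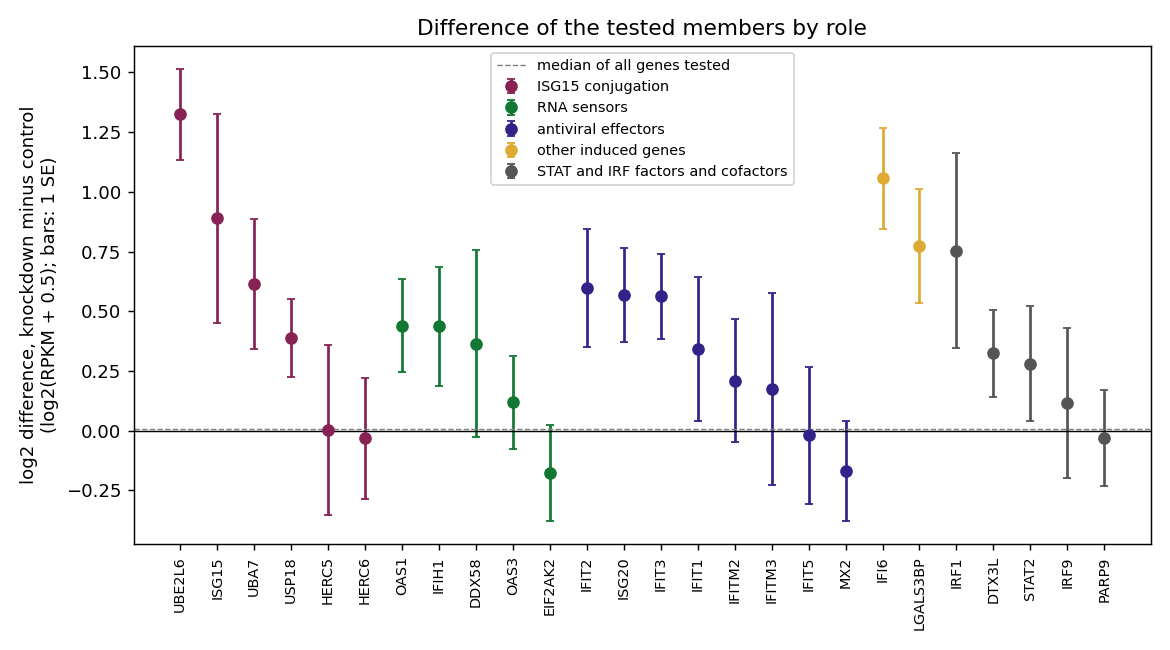
Log2 difference (knockdown minus control, on the log2(RPKM + 0.5) scale) of the 26 tested members, ordered by role, on the vertical axis, with bars of 1 standard error from limma and a dashed line at the median of all genes tested. UBE2L6 at 1.32 and IFI6 at 1.06 lie highest, and the 5 members below 0 reach -0.18.

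The roles can be set side by side by the median deviation of their tested members from the control mean, on the log2 scale. In ISG15 conjugation this was 0.01, 0.05 and 0.03 in the controls and 0.34 and 0.66 in knockdown. In the effectors it was -0.04, 0.07 and -0.03 in the controls and 0.26 and 0.32 in knockdown. In these roles the control medians lay together, which does not mean that the controls agreed gene by gene. In controls ISG15 stood at 73.6, 31.1 and 69.1 RPKM, and IFITM3 at 7.19, 10.7 and 3.94 RPKM. In the sensors the median deviation was 0.03, -0.22 and 0.19 in the controls and 0.48 and 0.25 in knockdown. In the STAT and IRF factors it was 0.12, -0.37 and 0.25 in the controls and 0.34 and 0.16 in knockdown, so that knockdown 3 lay under control 3. In these roles the spread among controls was of the size of the difference. Over all genes tested the deviation was -0.01, -0.12 and 0.12 in the controls and 0.00 and 0.01 in knockdown, so control 2 was the low and control 3 the high library there as well. Differences between roles were not tested.

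**Figure D4:**
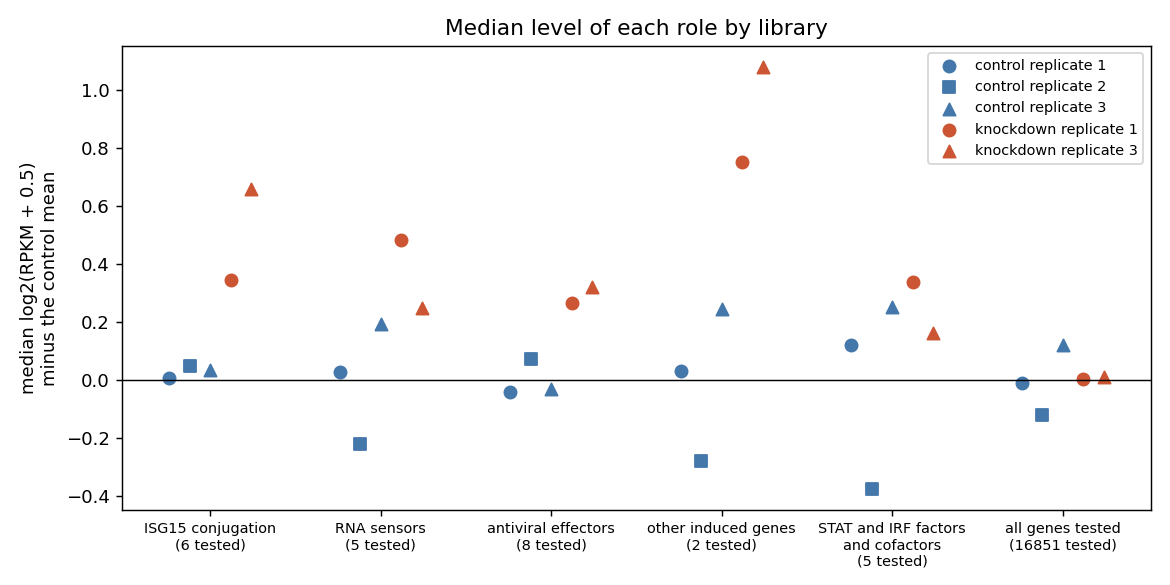
Median deviation from the control mean (log2 scale) of the tested members of each role, and of all genes tested, in each library; points are libraries. The knockdown points lie above the control points in ISG15 conjugation, the effectors, the sensors and the other induced genes, but not for both knockdown libraries in the STAT and IRF factors.

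Genes that act before and around the members were examined as lists. Of 21 interferon genes, 18 had 0 reads in all 5 libraries, IFNB1 among them, and none was tested. The remaining 3, IFNA5, IFNA17 and IFNL3, had 1 or 2 reads, all in knockdown 3. Of 17 receptors, kinases and inhibitors, 15 were tested, with 8 differences above 0 and 7 below, 0 called, and a median of 0.02. Both knockdown libraries were above all controls in 2 (SOCS1 and SOCS3) and below them in 3, against 14.6% and 12.8% of all genes. The 3 were IFNAR2, PIAS1 and PTPN11, named after their values were seen, with log2 differences of -0.46, -0.36 and -0.55. SOCS3 passed the filter only through the knockdown libraries, so its place in the count is partly fixed by the filter. It stood at 0.398, 0.188 and 0.485 RPKM in controls and 1.02 and 0.505 RPKM in knockdown. SOCS1, a feedback inhibitor of JAK kinases, stood at 2.12, 1.14 and 0.966 RPKM in controls and 2.52 and 3.15 RPKM in knockdown, a log2 difference of 0.84 (SE 0.31) with a limma p of 0.0397 and an adjusted p of 0.708. Control 2 held 4 reads of SOCS1.

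Of 16 genes of nucleic acid sensing upstream of interferon, 9 were tested, 5 above 0 and 4 below, with 0 called and a median of 0.01. Both knockdown libraries were above all controls in 3 and below in 0, against 14.6% and 12.8% of all genes. The 3 were IKBKE, TICAM1 and MAVS, named after their values were seen. IKBKE, a kinase that activates IRF3 and IRF7, stood at 6.69, 6.63 and 6.09 RPKM in controls and 9.82 and 8.54 RPKM in knockdown, a log2 difference of 0.47 (SE 0.15) with a limma p of 0.0250 and an adjusted p of 0.708. Of 35 further interferon-stimulated genes, 28 were tested, 16 above 0 and 12 below, with 0 called and a median of 0.14. Both knockdown libraries exceeded all controls in 10 and lay below them in 2 (TRIM5 and SAMHD1, named after their values were seen). The shares of all genes were 14.6% and 12.8%. At an unadjusted limma p under 0.05, 4 of the 28 were higher and 0 lower, against 4.25% and 2.39% of all genes. Summed over the 35 genes, the level was 168.5, 151.9 and 197.9 RPKM in controls and 180.7 and 169.1 RPKM in knockdown. The groups thus overlapped on this sum, unlike on that of the members. Among the 12 below 0 were ADAR, TRIM14 and PNPT1, named after their values were seen, with overlapping groups. Their log2 differences were -0.39, -0.45 and -0.42. The 4 higher genes are described next.

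C19orf66 (also called SHFL), an inhibitor of ribosomal frameshifting, stood at 1.13, 1.06 and 1.19 RPKM in controls and 2.11 and 2.35 RPKM in knockdown, a log2 difference of 0.75 (SE 0.20). TRIM56, a ubiquitin ligase of antiviral signalling, stood at 12.4, 11.4 and 11.7 RPKM in controls and 15.4 and 18.1 RPKM in knockdown, a log2 difference of 0.48 (SE 0.15). In both genes the controls lay close together, well under the knockdown libraries. For C19orf66 this closeness is uncertain, because control 2 held only 9 reads of the gene. TNFSF10, the death ligand TRAIL, stood at 1.69, 0.886 and 2.31 RPKM in controls and 3.47 and 3.49 RPKM in knockdown, a log2 difference of 0.96 (SE 0.33). Control 2, the low library, held 6 reads of TNFSF10. NMI, which binds STAT proteins, stood at 4.26, 3.83 and 4.87 RPKM in controls and 5.78 and 7.43 RPKM in knockdown, a log2 difference of 0.56 (SE 0.19). All 4 had a limma adjusted p of 0.708.

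The members were also searched for the seed match of the microRNA named in the series title. The seed is bases 2 to 8, in capitals in the mature RefSeq sequences, and is the same in both miR-19 forms.

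hsa-miR-19a-3p: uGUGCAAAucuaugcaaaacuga
hsa-miR-19b-3p: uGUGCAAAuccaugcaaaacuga

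The longest annotated 3′ UTR held the match TTTGCAC in 4 of the 37 members (10.8%), against 14.1% of 19477 genes. None of UBE2L6, ISG15, IFI6, LGALS3BP, IFIT3 and ISG20 held it. Genes of the other interferon lists were searched as well. SOCS1, SOCS3 and MAVS, with both knockdown libraries above all controls (14.6% of all genes tested), held the match. MAVS held 2 matches in a UTR of 9976 bases, and SOCS3 passed the filter only through the knockdown libraries. The match was also held by PTPN11, with both below, and by TBK1, SP100 and PNPT1, whose groups overlapped. IFNA2 and CGAS, which were below the level tested, also held it. Whether the match goes with the difference was not tested. The 4 members with a match are shown by 30 bases each, with the match in capitals and its position on GRCh38.

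EIF2AK2 (chr2:37100189-37100195, minus strand): ttacctcaacaggctTTTGCACtcagtggc
PARP9 (chr3:122534379-122534385, minus strand): ttgtaaaacctttatTTTGCACtctgggaa
IFITM1 (chr11:315136-315142, plus strand): ccatagcctgcaaccTTTGCACtccactgt
IFI44L (chr1:78646082-78646088, plus strand): taaaaattgatttctTTTGCACattccatg

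EIF2AK2 and PARP9, the tested members with a match, had log2 differences of -0.18 and -0.03, and IFITM1 and IFI44L were below the level tested. A match describes letters in an annotated UTR and is not evidence of a target site.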

How the data were processed

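RNA was sequenced from 6 libraries, and the authors deposited one table of RPKM values for 58676 genes. Reads were aligned with HISAT2 to GRCh38, per the submitters' processing notes. How reads were counted, with which annotation, strand setting and filter, is not given in the sources used here. GENCODE release 29 held every gene ID, and multiplying RPKM by exon length gave whole reads for 100% of values (tolerance 0.002 reads) in 5 libraries and 0.420% in knockdown replicate 2, which was left out.

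Differences were fitted with limma 3.58.1 (R 4.3.3; lmFit, eBayes with a mean-variance trend, two-sided) on log2(RPKM + 0.5) over genes that reached 0.5 RPKM in 2 or more of the 5 libraries, with Benjamini-Hochberg adjustment over all 16851. The count alternative was limma-voom on the recovered reads. Medians and counts over the members carry no test. The members and lists were chosen with earlier results of these data known. In each role the 4 tested members of largest absolute statistic were described in full, with ISG15, STAT2, IRF1, IRF7 and IRF9 in any case, and from each other list at most 4 genes at an unadjusted p under 0.05. Other settings of pseudocount, filter, scaling, trend and replicates were tried.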

Additional observations from a re-analysis of the deposited data

How the results depend on the processing

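Across 18 alternatives (other pseudocounts, filters, scalings, models and left-out libraries), the median log2 difference of the members stayed between 0.25 and 0.46, and none called a member lower. One alternative, voom with sample weights, called a member: 1 (UBE2L6) against 0. The number of members higher at an unadjusted p under 0.05, 5 as reported, (4.25% of all genes) was 8 with scaling by the trimmed mean (5.23%), by the median of ratios (5.46%) and by quantiles (4.84%), 9 with voom (4.95%) and with the length and GC trend removed (4.30%), 12 with voom and sample weights (6.98%), and 2 to 7 when 1 library was left out (0.793% to 5.28%). Members with both knockdown libraries above all controls numbered 12 (length and GC trend removed, 14.5% of all genes) to 17 (without control replicate 3, 24.9%), against 13 and 14.6% as reported. The log2 difference of IRF9 turned negative with quantile normalization (-0.15), with voom (-0.025) and with voom and sample weights (-0.10), and ran from -0.072 (without control replicate 2) to 0.22 when 1 library was left out. That of EIF2AK2 turned to 0.0078 with the length and GC trend removed. The causes were not tested.

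Replicate numbers 1 and 3 occur in both groups. The deviations of same-numbered libraries correlated at -0.13 (number 1) and 0.05 (number 3), values that centring on 2 knockdown libraries constrains, and they were not treated as pairs. With the replicate block, 3 members were higher at an unadjusted p under 0.05, against 5.003% of all genes, and no member was called, against 5 genes called higher and 1 lower. IRF9 stood at -0.072. Under the block 1 degree of freedom was left, and control 2 did not contribute.

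With 1948940 reads, control 2 held 8 of the 37 genes at 0 reads, against 1 or 2 genes in each other library, and its values are the least precise.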
